A study of Mus musculus with 6 samples.

Results

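The genes described here are 10 autosomal loci that encode factors of endogenous retrovirus silencing: Trim28, Setdb1, Atf7ip, Suv39h2, Ehmt1, Ehmt2, Cbx5, Daxx, Morc3 and Kdm1a. They were chosen by name from 21416 autosomal coding genes. Every ATAC-seq peak that overlapped one of these genes or lay within 20 kb of it was taken, which gave 26 of 22753 peaks in WT cells and 25 of 23722 peaks in Spen KO clone 3. ATAC-seq marks DNA that the Tn5 transposase can reach, so a peak is a stretch of accessible chromatin. The study asked how loss of Spen changes accessibility on the X chromosome and elsewhere. Its cells were haploid mouse embryonic stem cells of mixed genomic background that carry a doxycycline-inducible Xist transgene, grown in serum with LIF. The HATX WT line keeps Spen, and Spen KO clone 3 is 1 clone in which most of the gene is deleted. Each line was profiled without doxycycline and after 48 h of doxycycline at 2 ug/mL. The peak list of each line combines 2 technical replicates and names neither doxycycline condition, so no value below is tied to one. Clone 2 of the Spen KO line was not analysed here.

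Endogenous retroviruses are remnants of past germ line infections, and embryonic stem cells silence many of them through chromatin rather than DNA methylation alone. KRAB zinc finger proteins bind retroviral DNA and recruit the corepressor TRIM28, which brings in the methyltransferase SETDB1 to place methyl groups on lysine 9 of histone H3. Other methyltransferases, readers of the mark such as HP1, the H3.3 chaperone pair of DAXX and ATRX, and demethylases of the CoREST complex work beside this core. Spen is an RNA-binding corepressor that is needed for silencing by Xist. The lists show at which promoters of the silencing factors a peak was called in each line. A missing peak may lie below the threshold of a list, and the lists do not measure the factors' expression.

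For each peak the lists give a value per replicate on a scale that is not named. Values were therefore ranked within a list, from percentile 0 for the lowest to 100 for the highest, and the percentile of a peak refers to the mean of its replicate values unless a replicate is named. A peak is called a TSS peak when it overlaps the 2 kb centred on the transcription start site of a coding transcript, and shared when at least 1 bp of it lies under a peak called in the other line. With 1 list per line there is no test between the lines, and the spread available is that between replicates, which the authors call technical. The lists do not state whether the replicates differ in doxycycline condition. The spread between replicates was wide: the percentiles of both replicates of a peak differed by a median of 8.84 points in WT and 8.91 points in Spen KO clone 3.

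The labelled cell type was compared with marker genes. Of 8 embryonic stem cell genes, 3 (Pou5f1, Esrrb and Zfp42) had a TSS peak in both lists, a share of 37.5% beside 37% of all autosomal coding genes, so this count does not check the label. Sox2 had one in WT alone and Klf4 in Spen KO clone 3 alone. Nanog, Tdgf1 and Dppa4 had none, although all 8 genes had at least 1 peak within 20 kb in each list. Among 4 endoderm genes Foxa2 had a TSS peak in both lists and Gata4 in WT, and among 4 fibroblast genes only Thy1 had one, in WT. Among neural genes, Pax6 had a TSS peak in WT alone and Neurod1 had one in Spen KO clone 3 alone. Spen itself had 1 peak over its body in each list, the peak at its own start site, with replicate percentiles of 30.6 and 48.5 in WT and 61.0 and 24.7 in Spen KO clone 3. The promoter of the deleted gene was thus called accessible in both lists, and the peaks do not check the deletion.

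Of the 10 silencing factor genes, 6 had a TSS peak in WT and 6 in Spen KO clone 3. Trim28, Atf7ip, Suv39h2, Cbx5 and Daxx had one in both lists, which makes 5 of 10 against 37% of autosomal coding genes. Setdb1 had one in WT alone, a state found for 8.43% of genes, and Morc3 had one in Spen KO clone 3 alone, a state found for 4.42%. Ehmt1, Ehmt2 and Kdm1a had none in either list, as did 50.1% of genes. The plot of replicate percentiles at the start sites shows the 10 genes side by side.

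**Figure D1:**
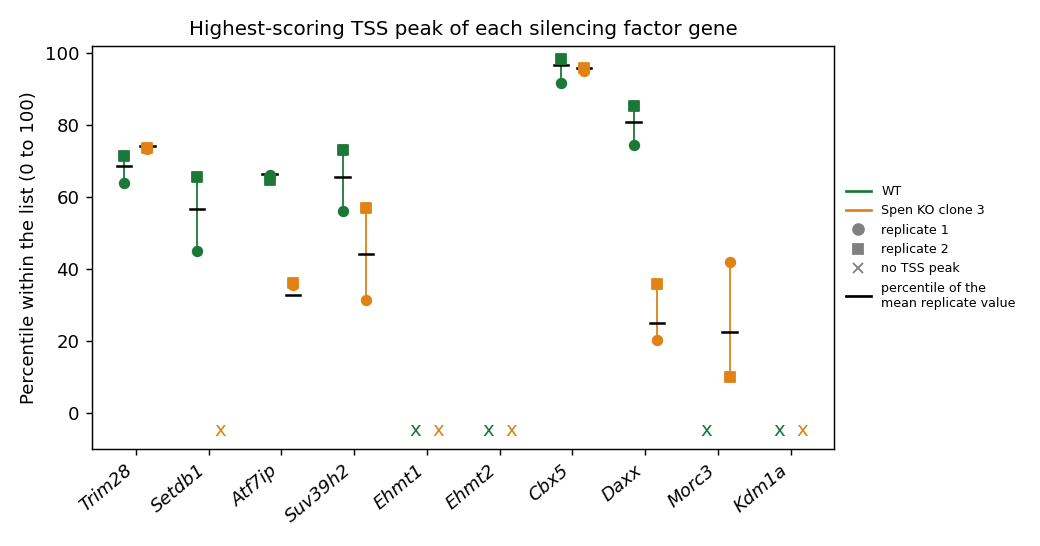
Percentile within its list (0 to 100) of the highest-scoring TSS peak of each gene, in WT (green) and Spen KO clone 3 (orange), with circles for replicate 1, squares for replicate 2 and a black bar for the percentile of the mean replicate value; a cross marks a gene without a TSS peak. Cbx5 sits above 90 in both lists, Atf7ip and Daxx sit lower in both Spen KO clone 3 replicates than in both WT replicates, and Setdb1 and Morc3 have a peak in 1 list.

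Trim28 encodes the scaffold on which the silencing complex assembles. At its start site (mm9, plus strand) the WT peak chr7:13609304-13609783 had replicate values of 23.8 and 25.3, at percentiles 63.9 and 71.4. The matching Spen KO clone 3 peak chr7:13609310-13609770 had values of 24.2 and 24.0, at percentiles 73.3 and 73.7. Both Spen KO clone 3 replicates therefore ranked above both WT replicates, with a rank shift (Spen KO clone 3 minus WT) of 5.72 points. An order of this kind was found for 13.3% of the shared TSS peaks of autosomal genes. A shared peak of slightly lower mean value just upstream, chr7:13608431-13608877 in WT, showed the opposite order of its mean values, with percentile 67.9 in WT and 22.0 in Spen KO clone 3. Its replicates were far apart, at percentiles 81.2 and 40.4 in WT and 43.0 and 8.02 in Spen KO clone 3, so they overlapped between the lines. The other 3 peaks at the locus, at the Zbtb45 and Chmp2a start sites and between genes, were shared as well. Trim28 was thus a locus where all 5 peaks of each list were shared.

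Setdb1 encodes the H3 lysine 9 methyltransferase that TRIM28 recruits. Its WT TSS peak, chr3:95160862-95161268, was 407 bp wide and had replicate values of 18.7 and 23.2, at percentiles 44.9 and 65.6, with an irreproducible discovery rate (IDR) of 0.000681. Spen KO clone 3 had no peak within 20 kb of the gene. The nearest peak in that list lay 76873 bp from the Setdb1 start site, at the Arnt promoter (chr3:95237997-95238551). Of 1925 WT TSS peaks within 10 percentile points of this one, 319 (16.6%) were in WT alone, so most peaks of this rank had a partner in the other list. The 3 other WT peaks within 20 kb were also in WT alone. They lay at the start sites of Anxa9, of Gm10691 with Lass2, and of Lass2, at percentiles 3.96, 2.97 and 34.5.

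The same held over a wider stretch. Within 100 kb of Setdb1 the WT list had 12 peaks, 10 of them in WT alone, and the Spen KO clone 3 list had 2. Most of these 10 had an IDR above 0.01, from 0.0208 to 0.0477. Besides the Setdb1 peak, those that passed were chr3:95028252-95028668 (IDR 1.52e-06), chr3:95067308-95067712 (0.00502) and the peak at Fam63a and Prune (0.00336). The share in WT alone was not computed at that IDR. Within 250 kb the counts were 15 in WT, 11 of them in WT alone, and 4 in Spen KO clone 3. Shared peaks at Sema6c, Gm128, Arnt and Golph3l flanked or broke this run, and the Arnt peak ranked alike in both lists, at percentile 82.2 in WT and 84.4 in Spen KO clone 3. Of 1280 autosomal coding genes with at least 10 WT peaks within 100 kb, 12 (0.938%) had a share in WT alone as high as the 83.3% at Setdb1. All 12 were Setdb1 and genes within 500 kb of it, so their windows overlap and count 1 neighbourhood, and the median share over the 1280 genes was 30%. That comparison was made for 100 kb alone. Within 250 kb of Ehmt1 7 of 11 WT peaks were in WT alone. These window sizes were chosen after the values at Setdb1 had been seen. Copy number of the stretch around Setdb1 in the 2 lines was not measured, and peak lists cannot show it.

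**Figure D2:**
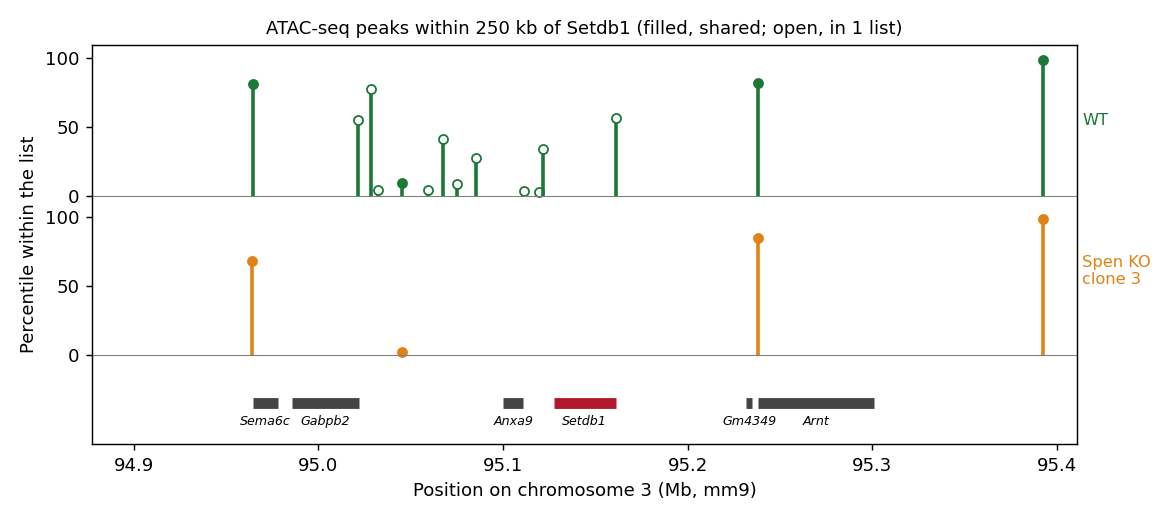
Peaks within 250 kb of Setdb1 on chromosome 3 (mm9, position in Mb), drawn as lines whose height is the percentile within the list (0 to 100), WT above and Spen KO clone 3 below, with filled heads for shared peaks and open heads for peaks in 1 list. Of the 15 WT peaks 11 are open, and each of the 4 Spen KO clone 3 peaks is shared.

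Part of the Setdb1 promoter has a second copy in the reference genome. Of the 384 sequences of 24 bases in the WT TSS peak, 221 (57.6%) occurred 2 times, and the others were single. The copied stretch, chr3:95160862-95161105, covers 244 bases on the gene side of the peak. Its copy lies on the opposite strand at chr3:95231499-95231742, 70.2 kb from the end of the peak. The copy overlaps the lincRNA gene Gm4349, and neither list had a peak in it. Only uniquely mapped reads entered the lists, and the part of this copy in the missing Spen KO clone 3 peak was not tested. The 3 other peaks in WT alone within 20 kb of Setdb1 consisted of single-copy sequence for 96.98%, 100% and 100% of their 24-base sequences.

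Atf7ip encodes a nuclear partner that stabilises SETDB1. Its promoter peak in WT, chr6:136467091-136467623, had replicate values of 24.6 and 23.0, at percentiles 66.2 and 64.7. In Spen KO clone 3 the peak chr6:136467087-136467675 had values of 15.3 and 14.9, at percentiles 35.7 and 36.1, with an IDR of 0.0422. The replicates were close within each line and did not overlap between lines, and the rank shift was -33.6 points. A shift this low or lower was found for 272 of 7061 shared TSS peaks (3.85%), and for 165 of the 1853 within 10 points of the Atf7ip WT percentile (8.90%). Atf7ip stood apart from its neighbours: of 5 shared peaks within 250 kb, Atf7ip included, 2 ranked lower in Spen KO clone 3, with a median shift of 2.21 points. Spen KO clone 3 also had 2 intron peaks that WT lacked. The one at chr6:136480994-136481709 had values of 10.8 and 9.02 (percentile 8.68), and the one at chr6:136502313-136502599 had values of 14.7 and 11.6 (percentile 22.1). Their IDRs were 0.0341 and 0.0396, near the limit of the list. Of Spen KO clone 3 distal peaks within 20 kb of a coding gene, 36.1% were in that list alone. So the locus had 1 called peak in WT and 3 in Spen KO clone 3, where its promoter peak ranked lower.

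Suv39h2 encodes a methyltransferase best known for heterochromatin at repeats. It had 1 peak in each list, over its start site and a coding exon. The WT peak, chr2:3391839-3392591, had values of 21.3 and 25.8, at percentiles 56.0 and 73.0. The Spen KO clone 3 peak, chr2:3391688-3392656, had values of 14.7 and 19.1, at percentiles 31.4 and 56.9. The mean rank was lower in Spen KO clone 3, by a shift of -21.4 points, but the upper Spen KO clone 3 replicate ranked just above the lower WT replicate. A shift this low or lower occurred at 12.3% of shared TSS peaks, and at 21.8% of those within 10 points of the Suv39h2 WT percentile.

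Ehmt1 and Ehmt2 encode GLP and G9a, the pair of enzymes that place mono- and dimethyl marks on lysine 9. Neither had a TSS peak in either list, although the 250 bases upstream of their start sites were rich in G and C, at 69.2% for Ehmt1 and 67.2% for Ehmt2. Ehmt1 had an intron peak in WT alone, chr2:24767677-24768075, with values of 21.0 and 17.0 (percentile 47.9). Upstream of Ehmt1 a shared distal peak at chr2:24783619-24784054 ranked at percentile 55.6 in WT and 30.5 in Spen KO clone 3, with replicates at 33.3 and 71.3 in WT and 25.1 and 41.7 in Spen KO clone 3. These replicates overlapped between the lines. A weak peak in Spen KO clone 3 alone, chr2:24784563-24784918, lay 509 bp from it (values 8.12 and 10.2, percentile 5.95). The third peak of each list at Ehmt1 was the shared one at the Arrdc1 start site, at percentile 73.9 in WT and 61.9 in Spen KO clone 3.

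At Ehmt2 the lists differed only in very weak peaks. WT alone had an intron peak at chr17:35039901-35040290, with values of 7.94 and 6.43, at percentile 0.434 of its list. Spen KO clone 3 alone had a peak at the start site of the neighbouring Zbtb12, chr17:35030932-35031406, with values of 7.31 and 7.12, at percentile 0.953. Both were among the lowest-ranked peaks of their lists. The shared peak at the Neu1 start site had percentile 71.9 in WT and 61.5 in Spen KO clone 3.

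Cbx5 encodes HP1 alpha, which binds methylated lysine 9. It had the highest-ranked promoter of the set, a wide peak over the start site that it shares with the divergent gene Hnrnpa1. In WT this peak, chr15:103069708-103071010, was 1303 bp wide and had values of 41.2 and 59.7, at percentiles 91.7 and 98.5. In Spen KO clone 3 it was 1322 bp wide (chr15:103069655-103070976) and had values of 42.2 and 43.1, at percentiles 95.2 and 95.7. The Spen KO clone 3 replicates lay between those of WT, and the shift of -1.08 points was smaller than the gap between WT replicates. Ranked by replicate 1 alone, the shift was 3.43 points, so it had no settled sign.

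A second start site within the Cbx5 gene had a shared peak as well, chr15:103045502-103046303 in WT, at percentile 54.2 there and 62.7 in Spen KO clone 3. Spen KO clone 3 had an additional weak peak beside it, chr15:103046512-103046808, with values of 10.5 and 11.1 (percentile 12.0), 209 bp from the nearest WT peak. WT alone had 2 weak peaks outside the gene. One was distal, chr15:103007576-103007844 (values 9.56 and 12.1, percentile 8.72), and the other was at the Nfe2 start site, chr15:103088719-103089093 (values 9.93 and 13.6, percentile 11.3). Every peak in 1 list at Cbx5 was thus in the low ranks, away from the main promoter.

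Daxx encodes the chaperone that deposits histone H3.3 together with ATRX. Its promoter peak in WT, chr17:34045890-34046623, had replicate values of 27.8 and 32.6, at percentiles 74.4 and 85.2. In Spen KO clone 3 the peak chr17:34045865-34046529 had values of 12.6 and 14.8, at percentiles 20.2 and 35.7, with an IDR of 0.0366. Both WT replicates ranked far above both Spen KO clone 3 replicates, and the peak went from rank 4322 of 22698 in WT to rank 17721 of 23656 in Spen KO clone 3. The rank shift was -55.9 points, and 8 of the 7061 shared TSS peaks (0.113%) had a shift this low or lower, Daxx among them. Of 2276 shared TSS peaks within 10 points of the Daxx WT percentile, the median shift was -4.66 points, and 6 (0.264%) had a shift as low as that of Daxx.

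The neighbours of Daxx did not show a drop of this size. The Kifc1 promoter peak upstream had percentile 94.6 in WT and 89.3 in Spen KO clone 3, and the peak between Tapbp and Zbtb22 downstream had percentile 57.9 in WT and 66.0 in Spen KO clone 3. Within 250 kb of Daxx, however, 12 of 13 shared peaks, Daxx included, ranked lower in Spen KO clone 3, with a median shift of -15.1 points, beside 50.5% of all 16053 autosomal shared peaks and 62.9% of the shared TSS peaks, which 9 of the 13 were. Stretches of this kind were not confined to Daxx: 7 of 8 shared peaks within 250 kb of Ehmt2 and 4 of 4 within 250 kb of Ehmt1 also ranked lower. Ehmt2 lies within 1000 kb of Daxx on chromosome 17, where 19 of 25 shared peaks ranked lower. Whether Daxx and Ehmt2 share 1 stretch was not tested. Around Trim28 6 of 20 shared peaks within 250 kb ranked lower, with a median shift of 2.90 points. Of 4248 autosomal coding genes with at least 10 shared peaks within 250 kb, 5.89% had a median shift as low as that around Daxx or lower.

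Morc3 encodes an ATPase of the MORC family that acts with DAXX in retroviral silencing. Spen KO clone 3 had a peak over its start site and a coding exon, chr16:93832302-93832772, with values of 16.4 and 9.997, at percentiles 41.9 and 9.96, and an IDR of 0.0323. WT had no peak there, and its nearest peak lay 5307 bp from the start site. The Spen KO clone 3 peak was weak, and its replicates were far apart. Of 1466 Spen KO clone 3 TSS peaks within 10 points of its percentile of 22.5, 392 (26.7%) were in that list alone.

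Upstream of Morc3 were shared distal peaks that ranked higher in Spen KO clone 3 by their mean values. The one at chr16:93816438-93817242 had percentile 45.3 in WT, with replicates at 15.0 and 69.1, and 59.3 in Spen KO clone 3, with replicates at 51.8 and 65.2. The one at chr16:93826409-93827059 had percentile 10.7 in WT, with replicates at 12.7 and 9.93, and 37.8 in Spen KO clone 3, with replicates at 48.2 and 32.2. For the first the replicates overlapped between the lines, and for the second both Spen KO clone 3 replicates were above both WT replicates. The share of distal peaks with such an order was not computed. Downstream, the promoter of the histone chaperone gene Chaf1b had percentile 65.6 in WT and 45.7 in Spen KO clone 3. Its replicates were at 62.1 and 67.5 in WT and, below both, at 31.0 and 59.8 in Spen KO clone 3. That order was found for 29.2% of all shared TSS peaks. A weak distal peak, chr16:93891142-93891543, was in Spen KO clone 3 alone (values 8.77 and 10.9, percentile 8.52).

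**Figure D3:**
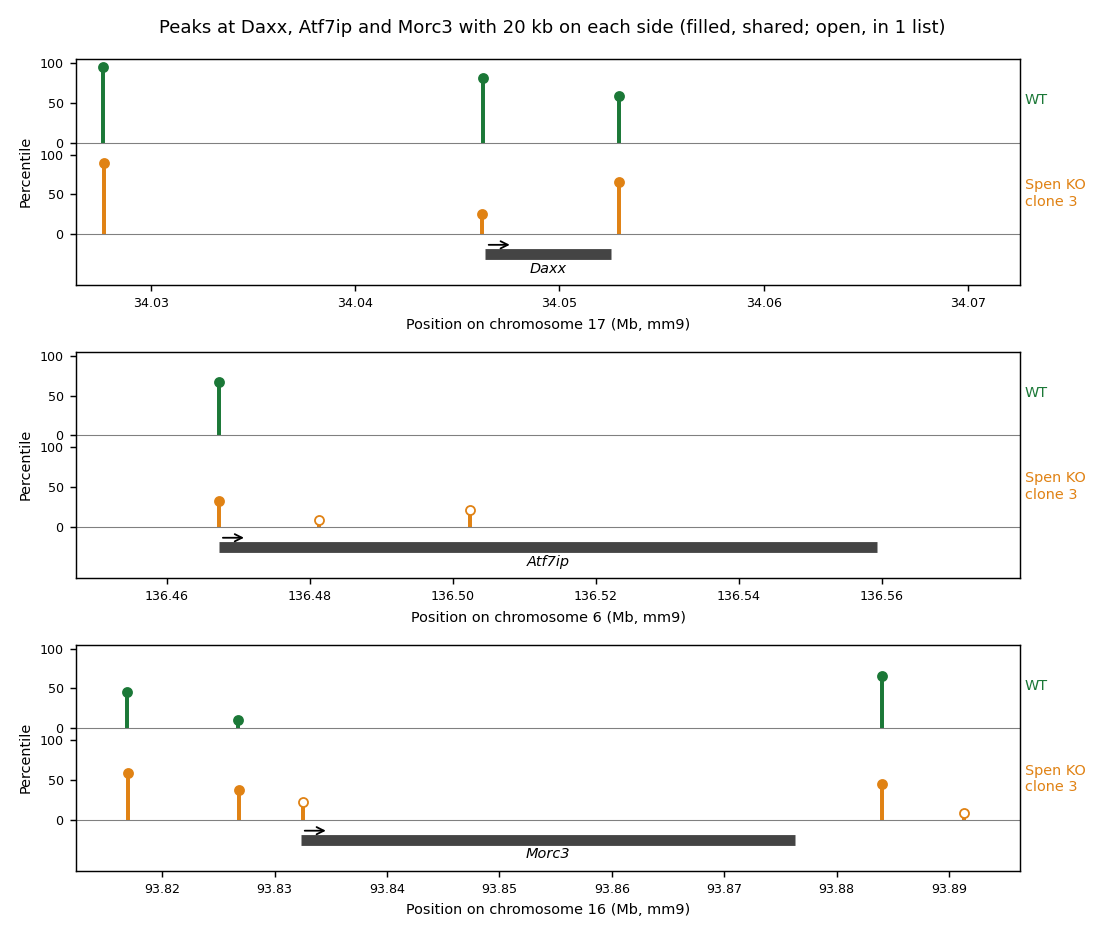
Peaks at Daxx, Atf7ip and Morc3 with 20 kb on each side (mm9, position in Mb), drawn as lines whose height is the percentile within the list (0 to 100), WT above and Spen KO clone 3 below, with filled heads for shared peaks and open heads for peaks in 1 list; the bar is the gene and the arrow its first start site. The Daxx promoter peak is at percentile 81.0 in WT and 25.1 in Spen KO clone 3, between neighbours of similar height in both, and the open heads at Atf7ip and Morc3 are all in Spen KO clone 3.

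Kdm1a encodes LSD1, the demethylase of the CoREST complex. It had no peak within 20 kb in either list. The nearest peak to its start site was 132432 bp away in WT and 132548 bp away in Spen KO clone 3. The Kdm1a upstream sequence was not poor in G and C, at 59.2%.

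Over the 5 genes with a shared TSS peak, 4 ranked lower in Spen KO clone 3 and 1, Trim28, ranked higher. The Trim28 peaks had nearly equal WT means of 24.5 and 24.3, and by the other one, with a shift of -45.9 points, all 5 ranked lower and the median shift was -33.6 points. With the higher-scoring Trim28 peak the median shift was -21.4 points, beside -2.82 points over all 7061 shared TSS peaks, of which 62.9% ranked lower. For Atf7ip and Daxx, 2 of the 5, both Spen KO clone 3 replicates were below both WT replicates, an order found for 29.2% of all shared TSS peaks. With 5 genes the count cannot be set apart from that background. A shift of the size at Daxx was found for 0.113% of the shared TSS peaks, and for 0.264% of those within 10 points of its WT percentile. Daxx was the lowest of the 5 and was picked out after the values had been seen, so these shares only describe it.

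The peaks at the silencing genes were also compared by IDR. In WT all 6 genes with a TSS peak had one at an IDR of up to 0.01, against 79% of genes with a WT TSS peak. In Spen KO clone 3 only Trim28 and Cbx5 did, which is 2 of 6 genes against 69.8% of genes with a TSS peak in that list. Those 2 ranked at percentiles 74.2 and 95.7, and Morc3, Daxx, Atf7ip and Suv39h2 at 22.5, 25.1, 32.8 and 44.2. The Atf7ip replicates were close, at percentiles 35.7 and 36.1. Among these 6 genes the 2 that passed were thus the highest-ranked. Rank alone did not set the IDR, since the distal Spen KO clone 3 peak chr16:93826605-93827034 near Morc3 passed at percentile 37.8 (IDR 0.00488). The Suv39h2 peak at percentile 44.2 did not (IDR 0.0116). How far the count reflects rank or replicate agreement was not tested. The lowest IDR of a TSS peak had a median over genes of 4.97e-05 in WT and of 0.0219 in Spen KO clone 3.

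Taking all 51 peaks at the 10 loci, 18 of 26 WT peaks and 18 of 25 Spen KO clone 3 peaks were shared, beside 74% and 71.6% of all autosomal peaks of these lists. At the genes' own start sites the Setdb1 peak, 1 of 8, was the one that WT alone held, beside 21% of WT TSS peaks. In Spen KO clone 3, 2 of 9 such peaks were in that list alone, beside 13.4%. They were the Morc3 peak and the weak peak beside the shared one at the second Cbx5 start site. At start sites of neighbouring genes 4 of 11 WT peaks and 1 of 8 Spen KO clone 3 peaks were in 1 list, beside the same 21% and 13.4% of TSS peaks, and 3 of these 4 WT peaks were neighbours of Setdb1. Among distal peaks 3 of 7 in WT and 4 of 8 in Spen KO clone 3 were in 1 list, beside 33.1% and 36.1% of distal peaks within 20 kb of a coding gene. With counts this small, the loci as a set are described and not set apart from other genes. Peaks at the loci had a median width of 581 bp in WT and 475 bp in Spen KO clone 3, beside 546 and 526 bp over the whole lists, with widths from 269 to 1303 bp and from 287 to 1322 bp.

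Repeated sequence was looked for in the peaks at the silencing genes, in lists that rest on uniquely mapped reads. In none of the 51 peaks did at least 50% of the 24-base sequences occur at least 10 times in the genome. In 44 peaks no such sequence was found, and the highest share was 16.9%, at the weak distal peak beyond Chaf1b. The shared distal peak nearest the Morc3 start site followed in that order, with 14.2% in WT and 15.7% in Spen KO clone 3. The share over all peaks of the lists was not computed, so nothing here sets these peaks apart.

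Other genes of the pathway were taken from a list of 60 by role, of which 57 are autosomal. Among the autosomal genes a TSS peak was found in both lists for 40, beside 37% of all autosomal coding genes, and in neither for 8, beside 50.1%. It was in WT alone for 8, beside 8.43%, and in Spen KO clone 3 alone for 1, beside 4.42%. The 8 in WT alone were the HP1 beta gene Cbx1, the G9a partners Wiz and Zfp644, the H3.3 gene H3f3a, the SUMO genes Sumo3 and Pias4, and the Polycomb-related genes Pcgf6 and L3mbtl2. Their percentiles ran from 5.24 for Sumo3 to 57.3 for H3f3a. Rybp, a Polycomb subunit, had a TSS peak in Spen KO clone 3 alone, at percentile 5.46. Dnmt3l, Hdac3, Chd4, Rcor2, Sae1, Zfp819, Smarcad1 and Trim33 had none in either list.

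Of these 57 genes 38 had a shared TSS peak, of which 26 ranked lower in Spen KO clone 3 and 12 higher. Of all autosomal shared TSS peaks 62.9% ranked lower. The median shift of the 38 was -3.01 points, beside -2.82 points over all autosomal shared TSS peaks. Both Spen KO clone 3 replicates were below both WT replicates for 12 genes (31.6%, beside 29.2% of all shared TSS peaks) and above for 1, Mga (beside 13.3%). The share below was near that of all genes, and the share above rests on 1 gene. The lowest shifts were at Sumo2 (-31.3 points), which encodes a SUMO protein, Cbx3 (-28.6 points), which encodes HP1 gamma, and the zinc finger gene Yy1 (-20.9 points). The highest were at Mga (26.0 points), Hdac1 (13.8 points) and Hells (11.9 points). The Daxx shift was lower than that of any of the 38 genes. Atrx, which encodes the partner of DAXX, lies on the X chromosome, and with the doxycycline condition of the lists unstated its values are not set against those of autosomal genes. It had replicate percentiles of 45.4 and 40.8 in WT and 40.2 and 63.8 in Spen KO clone 3, which overlapped.

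The 250 bases upstream of the start site nearest each promoter peak were read from the mm9 genome. Setdb1 and Morc3, the genes with a TSS peak in 1 list, had 56.8% and 50.8% G and C, beside a median of 61.2% for genes with a peak in WT alone and 61.2% for genes with one in Spen KO clone 3 alone. Daxx had 70.4% and Atf7ip 54.8%, beside a median of 62% for genes with a peak in both lists. For genes with a peak in neither list the median was 48.4%, which Ehmt1, Ehmt2 and Kdm1a all exceeded. The genes without a TSS peak thus had more G and C upstream than most genes of their state.

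Exact matches of 9 short motifs were counted on both strands of these 250 bases, and no motif contains another. Among the 7 silencing genes with a TSS peak, GGGCGGG (the SP/KLF motif) was upstream of 6, all except Atf7ip, beside 48.9% of 10678 autosomal genes with a TSS peak. CCAAT (NFY) was upstream of 4, Atf7ip, Cbx5, Daxx and Morc3, beside 38.5%. CCGGAAG (ETS) was found at Setdb1, beside 14.9%, and GCATGCGC (NRF1) at Morc3, beside 4.47%. TGACGTCA (CREB) was found at Suv39h2, beside 3.03%, CACGTG (E-box) at Cbx5, beside 8.43%, and ATGCAAAT (octamer) at Atf7ip, beside 1.44%. AAGATGGC (YY1) and the box motif TATAAA were upstream of 0 of the 7, beside 2.08% and 4.70%. A match is a description of the letters and no evidence of a bound factor.

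The following 5 stretches are printed because the results turn on them: the promoters of Daxx, which had the lowest rank shift, of Setdb1 and Morc3, each with a peak in 1 list, and of Trim28, whose higher-scoring peak ranked higher in Spen KO clone 3, and the narrower intron peak of Atf7ip in Spen KO clone 3 alone. They run 5′ to 3′ on the gene's strand in mm9, which is minus for Setdb1 and plus for the others, with matches to any of the 9 motifs on either strand in capitals, so that GGGCGGG on the other strand reads CCCGCCC. The promoter stretches hold no annotated exon. Those of Daxx, Morc3 and Trim28 end just before the start site used above, and that of Setdb1 ends 46 bases short of it, since another transcript of the gene starts there. They are Daxx chr17:34046263-34046358, Setdb1 chr3:95161125-95161328, Morc3 chr16:93832116-93832365, Trim28 chr7:13609251-13609500 and the Atf7ip intron peak chr6:136502313-136502599. The Setdb1 stretch lies outside the copied part of the peak and holds CCGGAAG on both strands.
Daxx: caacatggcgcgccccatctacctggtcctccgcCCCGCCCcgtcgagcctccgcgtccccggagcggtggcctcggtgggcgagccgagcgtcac
Setdb1: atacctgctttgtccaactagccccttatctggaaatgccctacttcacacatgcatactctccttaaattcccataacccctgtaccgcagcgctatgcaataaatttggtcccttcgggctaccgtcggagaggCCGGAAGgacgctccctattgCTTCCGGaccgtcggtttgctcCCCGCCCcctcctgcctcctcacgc
Morc3: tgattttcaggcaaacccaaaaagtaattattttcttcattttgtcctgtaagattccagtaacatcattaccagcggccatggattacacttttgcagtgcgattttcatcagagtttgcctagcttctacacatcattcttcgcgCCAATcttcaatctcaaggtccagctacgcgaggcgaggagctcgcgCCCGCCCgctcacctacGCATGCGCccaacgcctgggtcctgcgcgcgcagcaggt
Trim28: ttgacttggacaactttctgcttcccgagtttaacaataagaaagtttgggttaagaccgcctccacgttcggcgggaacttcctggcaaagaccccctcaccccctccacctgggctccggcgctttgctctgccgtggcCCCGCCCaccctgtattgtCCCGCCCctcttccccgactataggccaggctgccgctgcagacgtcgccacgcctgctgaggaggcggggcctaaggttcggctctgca
Atf7ip intron: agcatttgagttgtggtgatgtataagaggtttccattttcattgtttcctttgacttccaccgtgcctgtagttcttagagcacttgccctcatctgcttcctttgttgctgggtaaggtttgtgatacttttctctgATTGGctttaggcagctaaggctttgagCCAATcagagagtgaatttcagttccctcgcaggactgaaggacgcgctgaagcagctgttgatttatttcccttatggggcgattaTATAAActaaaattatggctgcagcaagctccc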

How the data were processed

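ATAC-seq peak lists of HATX WT and Spen KO clone 3 were used as deposited. After CutAdapt trimming and Bowtie2 mapping to mm9, the authors kept unique proper pairs without duplicates, called MACS2 peaks in each of 2 technical replicates and filtered them by IDR, which reached 0.05 in the lists. The authors' scores per replicate have no named scale, and the read depth is unknown. A peak's presence in a list replaces the authors' count test, and a missing peak may lie below the threshold. Peaks on chromosomes 1 to 19 and X (22698 WT, 23656 Spen KO clone 3) were set against GENCODE genes of mm9 in Python 3.11.15 with pandas 2.3.3, numpy 2.4.6 and numba 0.67.0. Overlaps were checked with bedtools 2.31.1 and scripts tested on simulated data. The shared TSS peak of a gene is its highest-scoring WT TSS peak with a partner in the other list. All 10 genes and each of their peaks in 1 list were named. Pathway genes were named when they had a TSS peak in 1 list or neither, or 1 of the 3 largest shifts either way, and Atrx was added after its values were seen. Of the marker genes, 1 is not reported here. The members and lists were chosen with earlier results of these data known.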

Additional observations from a re-analysis of the deposited data

How the results depend on the processing

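Of 29 alternative values for the counts and the median shift, 22 stayed within 1.5 times the main count or within the replicate spread. This does not mean that the same peaks were counted. The replicate spread of the median shift was taken from its values with 1 replicate left out. Those values are among the 22, so their agreement is no support. Peaks at the loci numbered 9 in WT and 10 in Spen KO clone 3 over gene bodies alone, and 49 and 42 within 50 kb, by construction. At an IDR of up to 0.01, 13 Spen KO clone 3 peaks were left, and none of the 7 described as in that list alone was among them. The 2 then in that list alone were the shared distal peaks upstream of Morc3, whose WT partners did not pass. Likewise 7 WT peaks were then in WT alone, of which 2, at Setdb1 and in the Ehmt1 intron, were among the 8 described so and 5 had lost a partner. A TSS peak at this IDR was left for 2 genes in Spen KO clone 3, and those of Morc3, Daxx, Atf7ip and Suv39h2 did not pass there. The Atf7ip replicates were nevertheless close, at percentiles 35.7 and 36.1. The median rank shift ran from -24.6 to -16.1 points with 1 replicate left out. At an IDR of up to 0.01 only Trim28 and Cbx5, with main shifts of 5.72 and -1.08 points, had a shared TSS peak. The pairs of Daxx, Atf7ip and Suv39h2 are then lost to the median. With the other shared peak of Trim28, an alternative chosen after seeing the data, the median shift was -33.6 points. The Trim28 shift then reversed from 5.72 to -45.9 points. For single genes, 23 of 25 other alternative shifts kept their sign. Cbx5, at -1.08 points, ran from -2.74 to 3.43 points with 1 replicate left out and was at 2.11 points with the lower replicate value, and Daxx ranged from -60.6 to -49.5 points. The causes were not tested. No test between the lines was made, paired or not, because each line has 1 combined list. Depth, doxycycline state, and whether a difference belongs to Spen loss or to this 1 clone cannot be told apart here.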
